A study of Mus musculus with 3 samples.

Results

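Cholesterol is built from acetyl-CoA through mevalonate, farnesyl diphosphate, squalene and a chain of sterol intermediates, and fatty acids from the same acetyl-CoA through malonyl-CoA, elongation and desaturation. Most genes of both routes are transcribed under the sterol regulatory element binding proteins, SREBP-2 with a preference for sterol genes and SREBP-1 for fatty acid genes. When membrane sterol is low, SCAP escorts the SREBP precursors from the endoplasmic reticulum to the Golgi, where they are cut and set free to enter the nucleus, and when sterol is high, INSIG proteins hold the complex back.

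The genes described here are 31 genes of sterol and fatty acid synthesis and their regulation, chosen by name among the 16593 named genes of an Illumina mouse bead array. The list was chosen with earlier results of these data known, so it is described and not tested as a set. The probe table held 36 probes for 28 of the 31 genes. Fdft1, Mvk and Acat2 had no probe under these symbols and were not analysed here. The only Fasn probe was not above background on any array, at detection p-values of 0.0802, 0.0150 and 0.435 in E3, T9 and OG2. This left 27 tested genes with 33 tested probes, out of 8688 tested genes in all. On all 3 arrays 24 of the 27 were detected, meaning a detection p under 0.01, the deposited p-value for a probe being no brighter than background. Idi1, Sc5d and Srebf1 were detected in E3 and T9 and not in OG2, so they entered the test only through the EpiSC arrays and their direction was fixed by that.

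The samples were 2 mouse epiblast stem cell (EpiSC) lines, E3 of hybrid background and T9 of 129 background, and 1 mouse embryonic stem cell (ESC) line, OG2 of hybrid background, with 1 array each. EpiSC correspond to the epiblast after implantation and ESC to the epiblast before it. All were grown in KSR medium. E3 and T9 received FGF2 at 5 ng/ml on inactivated CF1 mouse embryonic fibroblasts and were detached with collagenase IV, while OG2 grew on gelatin with LIF (1000 U) and inhibitors of GSK3 (CHIR99021, 3 uM) and MEK (PD0325901, 1 uM) and was lysed on the dish. Cell type, medium additions, feeders and harvest differed together between the groups and cannot be told apart. No line has a repeat culture, so a p-value here rests on the spread between 2 EpiSC lines, which limma shares across all tested probes. The shared part weighs more than a gene's own spread (2.97 prior degrees of freedom against 1 residual). A limma standard error (SE) near 0.25 is thus mostly this shared spread.

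The lines carried the markers of their labels. The summed background-corrected intensity of Esrrb, Zfp42, Klf4, Tbx3 and Tcl1 was 155 and 239 in E3 and T9, against 9906 in OG2, and that of Fgf5, Pou3f1, Otx2 and Lefty1 was 7584 and 5466 in E3 and T9, against 402 in OG2. Of 15 feeder fibroblast markers 13 had a probe, of which E3 and T9 detected 5 and 7, against 9 in OG2. Their summed intensity was 741 and 1174 in E3 and T9, against 3389 in OG2, and without Acta2, the brightest of them in OG2, it was 591 and 514 in E3 and T9, against 884 in OG2. Of the 9 tested feeder markers, 6 lay below OG2 in both EpiSC lines, as did 3364 of all 8688 tested genes. Thy1 lay above it in both, and Col5a1 and Tagln had OG2 between the lines. Lum and Lox were detected in OG2 only, so they entered the test through that array and their direction was fixed by that. Of the 5 markers detected on all 3 arrays, Dcn and Acta2 lay below OG2 in both lines. Among the 9 tested feeder markers limma called only Lox, as lower. Col1a2, Col3a1, Postn and Pdgfrb were not detected on any array. The arrays detected 10791, 11171 and 10768 of 25697 probes in E3, T9 and OG2. Over the members' detected probes the bead standard error, which covers the error within an array only, had a median of 4.54% of the signal and ran from 2.64% to 13.0%.

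In EpiSC, most enzymes of cholesterol synthesis and the desaturases Scd1 and Scd2 lay above the ESC level, by up to 3.85-fold for Dhcr7, while Apoe, the lipid carrier apolipoprotein E, fell 9.28-fold. Of the 27 tested members 0 were called higher and 1, Apoe, was called lower at an adjusted p under 0.05 (limma over all probes, 2 EpiSC arrays against 1 ESC array), where 0.299% of all tested genes were called higher and 0.921% lower. In bulk RNA, fewer cells that express a gene and less RNA per cell cannot be told apart.

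Among genes detected on all 3 arrays, E3 and T9 both lay above OG2 for 19 of 24 members and both below for 5, and OG2 lay between the EpiSC lines for 0. The same counts over all 6513 such genes were 42.2% above and 39.2% below. At least 2-fold higher in both lines were 9 of the 24, namely Dhcr7, Msmo1, Fdps, Scd2, Scd1, Lss, Insig1, Stard4 and Cyp51, against 6.11% of all genes detected on all 3 arrays. Their adjusted p lay between 0.0701 and 0.136, so none of the 9 passed the test. At least 2-fold lower was 1 member, Apoe, against 5.54%. At an unadjusted p under 0.05, 13 of the 24 were higher and 1 lower, against 11.6% and 10.3% of all such genes. The median log2 difference of the 24 members was 0.98, with 0.88 in E3 and 1.14 in T9, beside 0.022 over all such genes. E3 and T9 share the OG2 array in these differences, so a deviation of that array moves both alike. Because the members were chosen with earlier results of these data known, the shares and medians beside all genes are descriptions and no test.

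**Figure D1:**
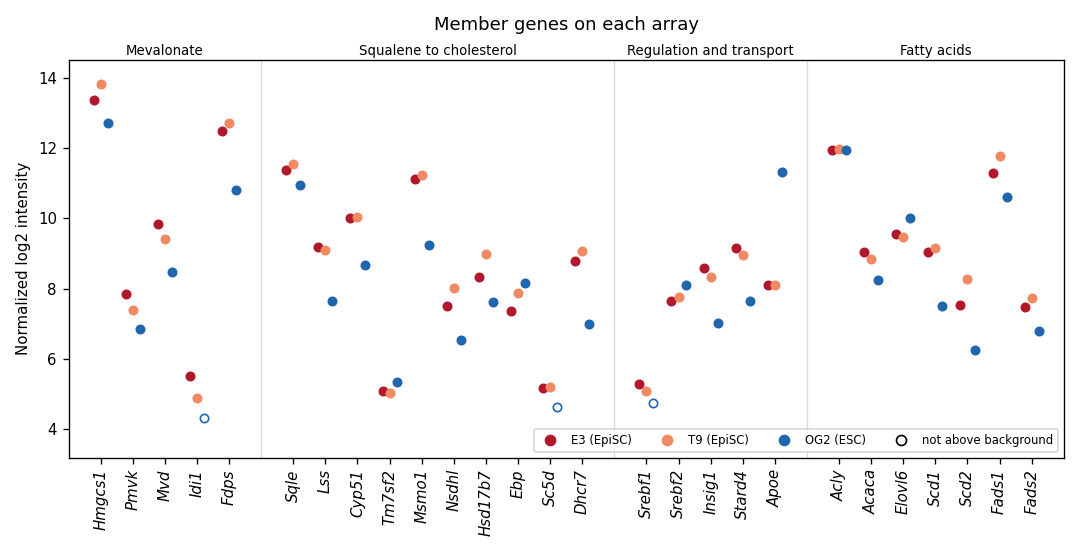
Normalized log2 intensity (vertical axis) of the 27 tested members on the arrays of E3, T9 and OG2, ordered by pathway step. Open points were not above background. The EpiSC points lie above the OG2 point for most sterol enzymes and for Scd1 and Scd2, and Apoe stands apart in the other direction, at 8.12 and 8.10 in E3 and T9 against 11.32 in OG2.

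Among the mevalonate steps, the first of the pathway, all 4 members detected on all 3 arrays lay higher in both EpiSC lines. Hmgcs1, the synthase that joins acetyl-CoA to acetoacetyl-CoA, was the brightest member and gave deposited signals of 11691 ± 351 and 14966 ± 461 in E3 and T9, against 6187 ± 231 in OG2 (± bead standard error). Its normalized log2 level, after background correction and quantile normalization, was 13.36 and 13.82 in E3 and T9, against 12.72 in OG2, a difference of 0.87 ± 0.32 (limma SE) with an adjusted p of 0.223. Its EpiSC arrays thus lay above the ESC array, and the gap did not pass the test. Fdps, which makes farnesyl diphosphate, the branch point towards sterols and prenylated proteins, had the widest gap of these steps. Its signals were 6436 ± 205 and 6805 ± 234 in E3 and T9, against 1769 ± 81.5 in OG2. On the normalized scale this was 3.47-fold (log2 difference 1.80 ± 0.27, limma adjusted p = 0.0781), with E3 and T9 only 0.23 apart.

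Mvd, the decarboxylase that makes isopentenyl diphosphate, had levels of 9.84 and 9.41 in E3 and T9, against 8.47 in OG2 (2.24-fold, limma adjusted p = 0.150). Pmvk, the kinase before it, had 7.85 and 7.38 in E3 and T9, against 6.85 in OG2 (1.71-fold, limma adjusted p = 0.256). Both genes were higher in E3 than in T9. Idi1, the isomerase after Mvd, was dim, with deposited signals of 112 ± 4.3 and 95.9 ± 3.0 in E3 and T9, against 83.0 ± 2.4 in OG2, where it was not above background. The limma adjusted p of Idi1 was 0.266, and no fold is given against a level not above background.

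The route from squalene to cholesterol held the widest gaps of all members on the higher side. Dhcr7, the reductase of the last step of one branch, had levels of 8.79 and 9.08 in E3 and T9, against 6.99 in OG2, a log2 difference of 1.94 ± 0.28 (3.85-fold, limma adjusted p = 0.0763). Msmo1, an oxidase that acts after Cyp51 in removing methyl groups from the sterol ring, gave signals of 2370 ± 100 and 2460 ± 69.9 in E3 and T9, against 649.8 ± 32.4 in OG2. Its log2 difference was 1.91 ± 0.26 (3.76-fold) with a limma adjusted p of 0.0701, the lowest among members on the higher side. With no background correction, median scaling or a looser detection filter, that adjusted p was 0.0403, 0.0480 and 0.0480, and over all alternatives it ran from 0.0403 to 0.160.

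Lss, which folds oxidosqualene into lanosterol, had levels of 9.19 and 9.11 in E3 and T9, against 7.64 in OG2 (2.84-fold, limma adjusted p = 0.0872). Cyp51, the demethylase that acts on lanosterol, had 10.03 and 10.04 in E3 and T9, against 8.66 in OG2 (2.58-fold, limma adjusted p = 0.0926). For Lss and Cyp51 the EpiSC lines were within 0.08 of each other, far less than their gap to OG2. Nsdhl and Hsd17b7, which act with Msmo1 in removing methyl groups, differed more between the EpiSC lines. Nsdhl had 7.51 and 8.01 in E3 and T9, against 6.55 in OG2 (2.31-fold, limma adjusted p = 0.154). Hsd17b7 had 8.33 and 8.98 in E3 and T9, against 7.62 in OG2 (2.04-fold, limma adjusted p = 0.222).

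Not every enzyme of the route was 2-fold apart. Sqle, the epoxidase that opens it, lay at 11.37 and 11.54 in E3 and T9, against 10.95 in OG2 (1.42-fold, limma adjusted p = 0.325). Ebp, the sterol isomerase, went the other way, with 7.36 and 7.88 in E3 and T9, against 8.16 in OG2 (log2 difference -0.54 ± 0.34, limma adjusted p = 0.401). Tm7sf2, a sterol reductase, was close to background on all arrays, with 5.09 and 5.04 in E3 and T9, against 5.34 in OG2 (log2 difference -0.27 ± 0.25). Sc5d, the desaturase before the Dhcr7 step, gave signals of 103 ± 4.1 and 104 ± 4.7 in E3 and T9, against 89.2 ± 2.9 in OG2, where it was not above background (limma adjusted p = 0.278). Over the 13 enzymes of both stretches detected on all 3 arrays, 11 had both EpiSC lines above OG2 and 2 had both below, with a median log2 difference of 1.16.

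**Figure D2:**
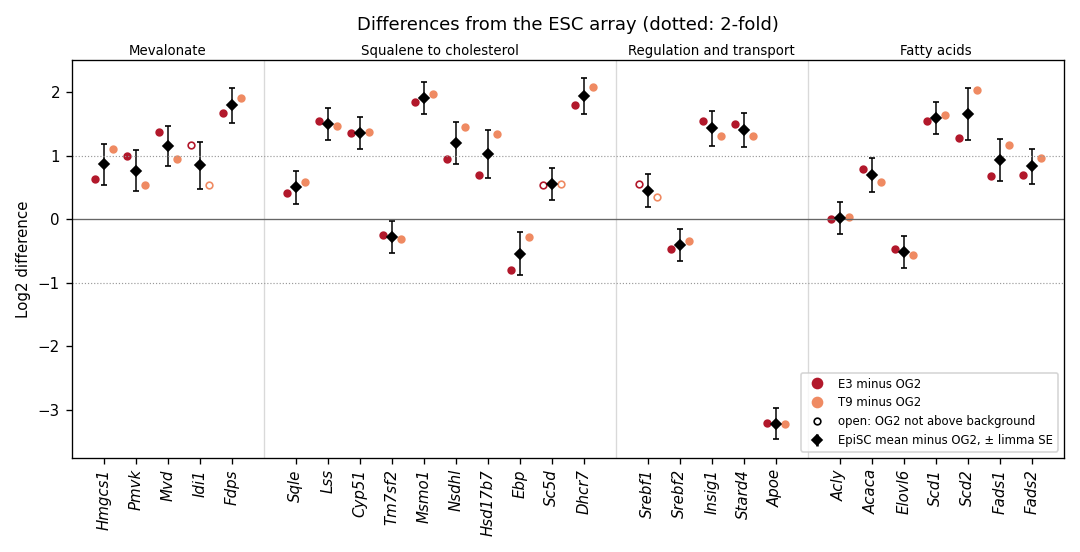
Log2 difference from the OG2 array (vertical axis) for each tested member, as E3 minus OG2, T9 minus OG2 and the EpiSC mean with its limma standard error. Open points mark Idi1, Sc5d and Srebf1, which were not above background in OG2. Of the sterol enzymes Dhcr7, Msmo1, Fdps, Lss and Cyp51 clear the dotted 2-fold line in both lines, and Ebp and Tm7sf2 lie below 0.

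The regulators of the pathway lay on both sides of the ESC level, and none of the Srebf and Insig1 differences passed the test. Srebf2, which encodes SREBP-2, had signals of 266 ± 15 and 291 ± 15 in E3 and T9, against 330 ± 14 in OG2. Its log2 difference was -0.40 ± 0.26 (limma adjusted p = 0.411), on the opposite side of 0 from most sterol enzymes. Srebf1, which encodes SREBP-1, was dim at 105 ± 4.3 and 101 ± 4.1 in E3 and T9, against 91.2 ± 3.3 in OG2, where it was not above background, and its second probe was not above background on any array. The limma adjusted p of its tested probe was 0.373. These are transcript levels, and cleavage of the SREBP proteins is not read by an array.

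Insig1, itself an SREBP target, had signals of 462 ± 27 and 400 ± 19 in E3 and T9, against 192 ± 12 in OG2, a log2 difference of 1.43 ± 0.27 (2.70-fold, limma adjusted p = 0.0956). Stard4, a cytosolic sterol carrier, had levels of 9.16 and 8.97 in E3 and T9, against 7.66 in OG2 (2.66-fold, limma adjusted p = 0.0944). For both genes E3 and T9 stood together above OG2.

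Several members had more than 1 probe. The probes of Sqle gave log2 differences of 0.51 each, and all 4 Nsdhl probes were higher in both EpiSC lines, from 0.57 on the dimmest to 1.24. The Insig1 probes disagreed. The 2 brightest gave 1.43 and 1.21, a further detected probe gave -0.38, with signals of 143 ± 6.0 and 128 ± 6.1 in E3 and T9, against 150 ± 5.8 in OG2, and the last was not above background. Taken as the mean over its tested probes, the Insig1 difference was 0.76 in place of 1.43, which no longer met the 2-fold rule.

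**Figure D3:**
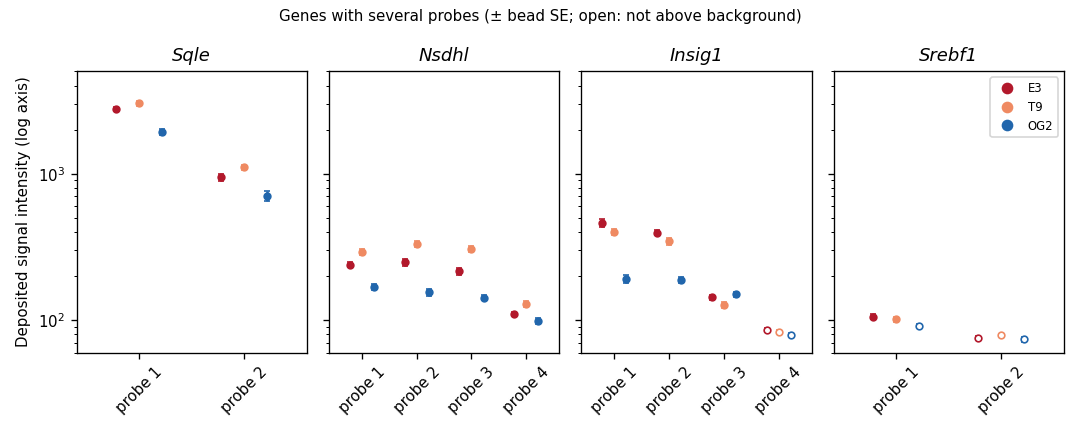
Deposited signal intensity (vertical log axis, ± bead standard error) on E3, T9 and OG2 for every probe of Sqle, Nsdhl, Insig1 and Srebf1, ordered within a gene by the OG2 signal. The Sqle and Nsdhl probes run the same way, while the third Insig1 probe reads 143, 128 and 150 in E3, T9 and OG2.

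Apoe was the only member that passed the test. Its product carries cholesterol out of cells, and the gene is a known target of the sterol-sensing LXR receptors. Apoe gave signals of 347 ± 29.6 and 348 ± 21.7 in E3 and T9, against 2556 ± 187 in OG2. Its normalized level was 8.12 and 8.10 in E3 and T9, against 11.32 in OG2, and it fell by 3.21 ± 0.25 on the log2 scale (limma adjusted p = 0.0348). Both EpiSC lines thus lay at one level, far below OG2. The adjusted p was 0.160 on the authors' processed values and 0.105 with every probe tested, with log2 differences of -3.25 and -3.21, and over all alternatives it ran from 0.0185 to 0.160. Of the 5 tested feeder fibroblast markers detected on all 3 arrays, Dcn and Acta2 also lay below OG2 in both EpiSC lines. Thy1 lay above it in both, and Col5a1 and Tagln had OG2 between the lines. The part of feeder cells in the Apoe result was not tested.

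In the fatty acid branch, none of the 7 tested members passed the test, and Scd1 and Scd2 were the members at least 2-fold higher in both lines. Scd1, which with Scd2 puts the first double bond into stearoyl-CoA, had levels of 9.06 and 9.16 in E3 and T9, against 7.51 in OG2 (3.03-fold, limma adjusted p = 0.0819). Scd2 had 7.53 and 8.28 in E3 and T9, against 6.25 in OG2 (3.17-fold, limma adjusted p = 0.136), with a bead standard error of 13.0% of the signal in T9. Scd1 and Scd2 are close paralogs, and whether each probe also reads the other gene was not tested. Fads1 and Fads2, the front-end desaturases of polyunsaturated fatty acids, had EpiSC means 1.91-fold and 1.78-fold above OG2, with limma adjusted p of 0.210 and 0.192. Fads1 had 11.29 and 11.78 in E3 and T9, against 10.61 in OG2. Fads2 had 7.49 and 7.75 in E3 and T9, against 6.78 in OG2.

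Acly, which supplies cytosolic acetyl-CoA from citrate, had a log2 difference of 0.020 ± 0.25, with levels of 11.94 and 11.97 in E3 and T9, against 11.94 in OG2. Acaca, the carboxylase that makes malonyl-CoA, had 9.05 and 8.84 in E3 and T9, against 8.25 in OG2 (1.62-fold, limma adjusted p = 0.234). Elovl6, the elongase that acts on palmitoyl-CoA, had 9.56 and 9.46 in E3 and T9, against 10.03 in OG2 (log2 difference -0.52 ± 0.25, limma adjusted p = 0.309). Over the 7 tested fatty acid members, 6 had both EpiSC lines above OG2 and 1 both below, with a median log2 difference of 0.84, beside 0.022 over all genes detected on all 3 arrays.

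**Figure D4:**
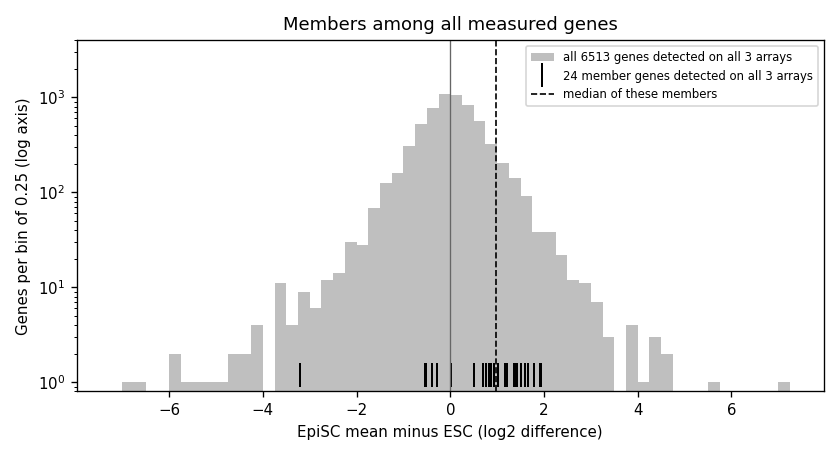
Number of genes per bin of the log2 difference EpiSC mean minus ESC (log vertical axis), for the 6513 genes detected on all 3 arrays, with the 24 members so detected drawn as ticks. The dashed line is the members' median of 0.98, and the lone tick on the left is Apoe at -3.21.

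The promoter windows of RefSeq (250 bases before to 50 after a start site, GRCm38.p6) were used for 24 of the 31 genes. Both strands were searched for TCACNCCAC, a core of the sterol regulatory element, CCAAT, the motif of NF-Y, and GGGCGG, the motif of Sp1. NF-Y and Sp1 are known partners of SREBP at sterol genes. CCAAT was in a window of 14 of 15 sterol enzyme genes (93.3%) and of 5 of 9 other members (55.6%), against 41.1% of all 27025 genes with a window. GGGCGG gave the same member counts, against 38.2% of all genes. TCACNCCAC was in 1 member, Hmgcs1, and in 1.44% of all genes. Of the members 2-fold higher in both lines, Msmo1, Lss, Insig1 and Cyp51 held CCAAT in their window and Dhcr7 in 1 of its 3 windows, while Fdps, Scd1, Scd2 and Stard4 had no window in the table. A match is a run of letters and not a shown binding site.

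The windows of Hmgcs1, the member with the TCACNCCAC match and the brightest signal, of Msmo1, with the lowest adjusted p on the higher side, of Insig1, the regulator 2-fold higher in both lines, and of Apoe, the member that fell, are printed for comparison. Capitals mark CCAAT or its reverse complement and TCACNCCAC.
Hmgcs1 (GRCm38.p6, chr13:119690101-119690400, plus strand): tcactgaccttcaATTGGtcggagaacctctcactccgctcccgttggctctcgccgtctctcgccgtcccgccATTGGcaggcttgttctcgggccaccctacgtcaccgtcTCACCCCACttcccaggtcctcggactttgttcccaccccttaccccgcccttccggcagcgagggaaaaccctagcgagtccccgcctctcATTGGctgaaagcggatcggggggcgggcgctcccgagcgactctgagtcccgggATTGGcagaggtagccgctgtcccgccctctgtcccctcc
Msmo1 (GRCm38.p6, chr8:64733529-64733828, minus strand): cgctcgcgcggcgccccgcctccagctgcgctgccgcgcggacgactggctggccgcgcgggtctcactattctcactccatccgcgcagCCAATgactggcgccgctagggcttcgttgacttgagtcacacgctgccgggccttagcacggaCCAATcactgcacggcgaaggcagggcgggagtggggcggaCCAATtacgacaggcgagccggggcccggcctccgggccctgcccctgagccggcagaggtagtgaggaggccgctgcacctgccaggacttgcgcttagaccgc
Insig1 (GRCm38.p6, chr5:28071162-28071461, plus strand): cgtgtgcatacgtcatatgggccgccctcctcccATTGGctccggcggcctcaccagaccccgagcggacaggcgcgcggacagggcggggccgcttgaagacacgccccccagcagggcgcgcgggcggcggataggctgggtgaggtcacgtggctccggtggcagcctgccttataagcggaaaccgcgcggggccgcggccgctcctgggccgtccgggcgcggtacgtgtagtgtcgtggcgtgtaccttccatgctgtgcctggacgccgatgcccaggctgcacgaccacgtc
Apoe (GRCm38.p6, chr7:19699139-19699438, minus strand): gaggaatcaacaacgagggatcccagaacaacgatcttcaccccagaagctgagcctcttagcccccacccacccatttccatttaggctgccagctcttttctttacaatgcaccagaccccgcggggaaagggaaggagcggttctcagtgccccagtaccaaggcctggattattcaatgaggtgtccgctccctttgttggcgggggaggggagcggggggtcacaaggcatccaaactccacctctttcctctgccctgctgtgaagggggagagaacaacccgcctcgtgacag
The Hmgcs1 window has 4 CCAAT matches and the TCACNCCAC match, which begins at -137 from the start site. The Msmo1 window has 3 CCAAT matches, at -160, -96 and -55, and the Insig1 window 1, at -216. The Apoe window shown, the first of 3 in the table, has 0 matches to CCAAT, TCACNCCAC or GGGCGG.

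Between the EpiSC lines, which have 1 array each and no test, 0 of 27 members were 2-fold apart, against 5.79% of all tested genes. Scd2 was furthest apart, 1.68-fold higher in T9 than in E3, followed by Hsd17b7, 1.57-fold higher in T9, and Idi1, 1.54-fold higher in E3. On the authors' processed values Idi1 was 2.16-fold higher in E3. Idi1 was dim, with deposited signals of 112 and 95.9 in E3 and T9. Its T9 level of 4.88 was close to the lowest detected level on that array, 4.78, so its folds depend on the background handling. T9 lay above E3 for 8 of the 10 members from squalene to cholesterol and for 5 of the 7 fatty acid members, while E3 lay above T9 for 3 of 5 mevalonate members, where 49.3% of all tested genes were higher in T9 and 50.4% in E3. The SD of the members' log2 differences between E3 and T9 was 0.33 over the 24 detected on all 3 arrays, beside 0.49 over all such genes.

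Of 52 further lipid genes on the same or adjoining paths, 39 had a probe and 26 were tested, and limma called 0 higher and 0 lower, against 0.299% and 0.921% of all tested genes. Of the 23 detected on all 3 arrays, 6 were higher and 6 lower at an unadjusted limma p under 0.05, against 11.6% and 10.3% of all such genes. The median log2 difference of the 23 was -0.12. The 23 pool genes of synthesis and its regulation with genes of uptake, LXR targets, oxidation and side branches, so this median describes no single path. At least 2-fold lower in both lines were 3 of the 23, namely Scap, Apoc1 and Acadm, against 5.54% of all genes detected on all 3 arrays. At least 2-fold higher was 1, Cpt2, against 6.11%. Scap, the SREBP escort, had levels of 5.17 and 5.09 in E3 and T9, against 6.27 in OG2 (log2 difference -1.14 ± 0.25, limma adjusted p = 0.116). The Scap levels in E3 and T9 were close to background, where the lowest detected levels were 4.87 and 4.78. Apoc1, an apolipoprotein gene next to Apoe in the RefSeq gene table, had 7.99 and 6.78 in E3 and T9, against 9.04 in OG2 (log2 difference -1.66 ± 0.58, limma adjusted p = 0.208). Acadm, a dehydrogenase of fatty acid oxidation, had a log2 difference of -1.07 ± 0.25. Cpt2, a mitochondrial carnitine palmitoyltransferase, had levels of 8.61 and 8.63 in E3 and T9, against 7.38 in OG2 (limma adjusted p = 0.104). Its relative Cpt1b was detected in E3 and T9 and not above background in OG2.

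**Figure D5:**
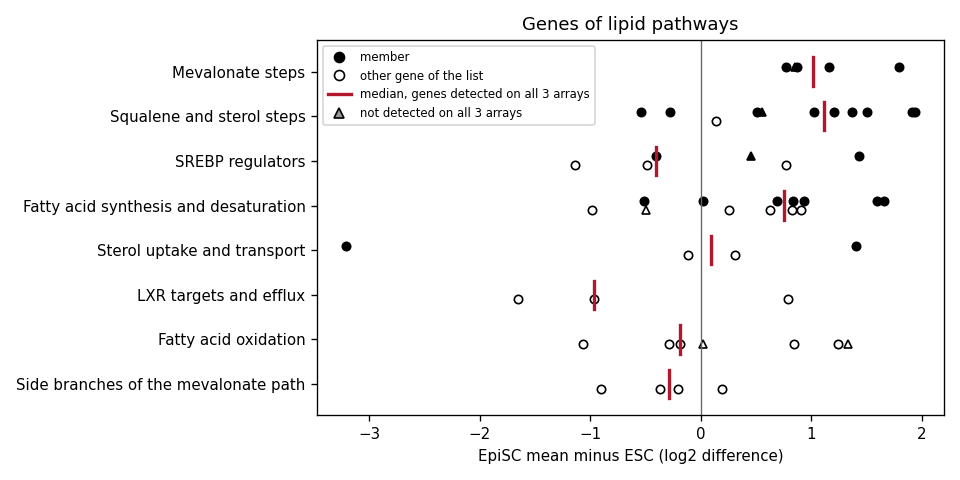
Log2 difference EpiSC mean minus ESC (horizontal axis) of every tested gene in the lipid pathway lists, with members filled and other genes open, and the list median as a bar. Triangles are genes not detected on all 3 arrays, which the medians leave out. The medians, members included, of the mevalonate and of the squalene and sterol steps are 1.02 and 1.12, and that of fatty acid oxidation is -0.19. Those of fatty acid synthesis and desaturation and of sterol uptake and transport are 0.76 and 0.097. Those of the SREBP regulators, of LXR targets and efflux, and of side branches of the mevalonate path are -0.40, -0.97 and -0.29.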

How the data were processed

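Total RNA (400 ng input, 12 h of in vitro transcription) of each line was hybridised to 1 array, as the labels' protocols say. The deposited tables hold a linear signal intensity per probe, its bead standard error and a detection p-value, per the file headers. The lowest signals were 70.5, 66.7 and 69.3 in E3, T9 and OG2. The submitters' processing notes name BeadStudio without a version. A second deposited table holds the authors' processed intensity values, of unstated normalization. It served only as an alternative, and its column medians were 81.0, 80.8 and 80.8 in E3, T9 and OG2.

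Background was corrected with nec of limma 3.58.1 (offset 16, R 4.3.3), followed by log2 and quantile normalization. The offset understates folds of dim genes. The 12603 probes detected (p under 0.01) on 1 or more arrays were fitted with lmFit and eBayes, E3 and T9 against OG2, with Benjamini-Hochberg adjustment over all of them (two-sided, threshold 0.05). The script was tested on simulated data, where mean estimates followed the simulated differences. No probe was called there, not even those given a simulated difference. The test can thus miss real differences, and a gene not called is not shown to be unchanged. A gene was represented by its brightest tested probe. Of 25697 probes, 23978 had 1 gene symbol, 0 several and 1719 none. No fold over OG2 is given for a gene not detected there. The log2 differences of such genes, given for the alternative settings and drawn in the figures, stand against a level not above background. All 31 members could be named, and other listed genes where called or 2-fold apart in both lines. The members and lists were chosen with earlier results of these data known, so lists are described and not tested. Background, offset, scaling, detection filter, value source, probe choice and each EpiSC line were varied. The number of arrays limits the precision.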

Additional observations from a re-analysis of the deposited data

How the results depend on the processing

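Of the 27 tested members, Idi1, Sc5d and Srebf1 had their direction against OG2 fixed by detection. The other members kept theirs, from E3 and T9 against OG2, under each of the 11 alternative settings that gave them a value, except for Acly. The Acly difference was -0.020 with cyclic loess. The call on Apoe was lost (0 members called lower) on the authors' processed values and with no filter on dim probes, where 0 probes in all were called higher or lower. Msmo1 was called, as the 1 member called higher, with no background correction, with median scaling and with a detection p under 0.05. The median log2 difference of all 27 tested members, Idi1, Sc5d and Srebf1 included, was 0.87, and 0.98 over the 24 detected on all 3 arrays. Over the 27 it was 1.01 with median scaling and 1.06 on the authors' processed values. With E3 or T9 left out it ran from 0.80 to 0.96. Members 2-fold higher in both lines numbered between 7 and 12 over all settings. Those 2-fold apart between E3 and T9 numbered 1 (Idi1) on the authors' processed values. Over all probes 36 were called higher and 109 lower (24.8% higher), against 110 and 186 with median scaling (37.2%), 122 and 222 with cyclic loess (35.5%), 127 and 224 with a detection p under 0.05 (36.2%), 35 and 58 among probes detected on all 3 arrays (37.6%), and 21 and 77 with an offset of 50 (21.4%). The causes were not tested. Leaving out E3 or T9 leaves 1 array on each side, so those settings give values and no calls. Over all settings the log2 difference of the dim member Idi1 ran from 0.29 to 1.65, Sc5d from 0.18 to 1.34 and Srebf1 from 0.15 to 1.01. The Fasn difference of 0.33, available only where dim probes were let in, had an adjusted p of 0.476 and 0.529. No paired analysis was possible because the labels give no replicate numbers and the ESC group has 1 array.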
